A study of Mus musculus with 6 samples.

Results

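The transcripts described are 10 genes of the cells and matrix that surround blood vessels and nerves: matrix Gla protein (Mgp), the fibrillar collagen genes Col1a1, Col1a2 and Col3a1, the small proteoglycan genes Dcn and Lum, and the mural genes Tagln, Acta2, Pdgfrb and Rgs5. They were taken by symbol from a deposited table of 37447 genes and were chosen by their measured FPKM in the 6 libraries, for low levels in FMC against FM, so their difference between the groups is given as a description without a test. All 10 were found, each in a single row, and 9 of the 10 reached 1 FPKM in at least 2 libraries; Rgs5 did not. The libraries were made from flow-sorted microglia, macrophages that live in the nervous system, of the optic nerve of C57BL/6 mice aged 3 months. FMC mice (4 libraries, FMC 1 and FMC 4 female, FMC 2 and FMC 3 male) had the Nf1 flox/mut genotype with the GFAP-Cre transgene, whose promoter is active in astroglial cells and their precursors. FM mice (2 libraries, FM 1 male and FM 2 female) were Nf1 flox/mut without Cre, so all 6 libraries share a floxed and a mutant allele of Nf1, the gene of neurofibromatosis type 1. The labels call the libraries biological replicates and do not say whether animals were pooled.

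Mural cells, the smooth muscle cells and pericytes, wrap vessels and contract through actin filaments, and they are recruited and kept there by platelet-derived growth factor acting on Pdgfrb. Fibroblasts lie in the adventitia of vessels and in the meninges and nerve sheath, where they secrete collagen fibrils whose assembly is tuned by proteoglycans such as decorin and lumican. Microglia are not known as a main source of these products, and Mgp, a small secreted protein activated by vitamin K-dependent carboxylation, keeps vessel walls and cartilage from calcifying and binds bone morphogenetic proteins. In the same libraries the microglial markers were high: the 15 genes of that list, among them Cx3cr1, P2ry12, Tmem119 and Csf1r, summed to between 4558 and 7657 FPKM in FMC and to 4393 and 8734 FPKM in FM. FPKM is the number of fragments scaled to transcript length and to the mapped total of the library. The depth, estimated from the FPKM that 1 fragment is worth and given relative to FMC 2, was 1.38, 1, 2.00 and 2.17 in FMC 1 to FMC 4 and 1.15 and 3.34 in FM 1 and FM 2, so FM 2 was the deepest library.

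Promoter sequences of RefSeq (build GRCm38.p6, 250 bases before to 50 after the start) were held for 4 of the 10 genes, Acta2, Col1a2, Col3a1 and Rgs5. The windows of Acta2 and Col1a2 are shown because the first belongs to the contractile genes and the second to the collagen genes, the groups whose levels are set side by side here. Acta2 lies on the minus strand (chr19:34255324-34255623) and Col1a2 on the plus strand (chr6:4505368-4505667). Capitals mark matches on either strand to the CArG box, the element bound by serum response factor in contractile genes, with up to 1 base other than A or T in its core, to CCAAT, and to TATAA.
Acta2: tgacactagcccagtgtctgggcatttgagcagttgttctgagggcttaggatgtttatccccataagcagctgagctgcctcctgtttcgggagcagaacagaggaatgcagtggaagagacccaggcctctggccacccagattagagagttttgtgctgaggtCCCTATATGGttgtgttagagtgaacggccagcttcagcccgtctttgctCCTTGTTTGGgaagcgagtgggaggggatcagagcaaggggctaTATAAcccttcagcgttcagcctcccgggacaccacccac
Col1a2: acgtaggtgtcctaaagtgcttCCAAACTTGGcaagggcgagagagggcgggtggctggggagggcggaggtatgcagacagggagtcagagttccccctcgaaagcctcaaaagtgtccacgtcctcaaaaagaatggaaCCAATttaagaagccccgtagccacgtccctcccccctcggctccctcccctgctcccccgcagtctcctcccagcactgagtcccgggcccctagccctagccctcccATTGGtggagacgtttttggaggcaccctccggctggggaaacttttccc
The Acta2 window held 2 such CArG matches and a TATAA, and the Col1a2 window held 1 CArG match and 2 of CCAAT; no matches overlapped. Of 32851 promoter windows of the same length, 9.98% held a CArG match of this kind, 1.63% one with A and T alone in the core, 37.4% CCAAT and 24.9% TATAA. A match is a description of letters and not a binding site.

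Mgp, Tagln, Col1a1 and Col3a1 were lower in all 4 FMC libraries than in both FM libraries, and none of the 10 was higher in all 4. The other 6 overlapped between the groups, and Dcn and Acta2 were highest of all libraries in FMC 1. Across the 18208 genes tested, 8.22% lay below both FM libraries in every FMC library and 4.34% above. The share of 4 in 10 cannot be read against that background, because the genes were picked for this direction. Over the 10 genes the median difference on the log2(FPKM + 1) scale, FMC minus FM, was -0.71, against -0.12 over all genes tested. In a bulk sample, fewer cells of a type and less RNA per cell cannot be told apart.

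**Figure D1:**
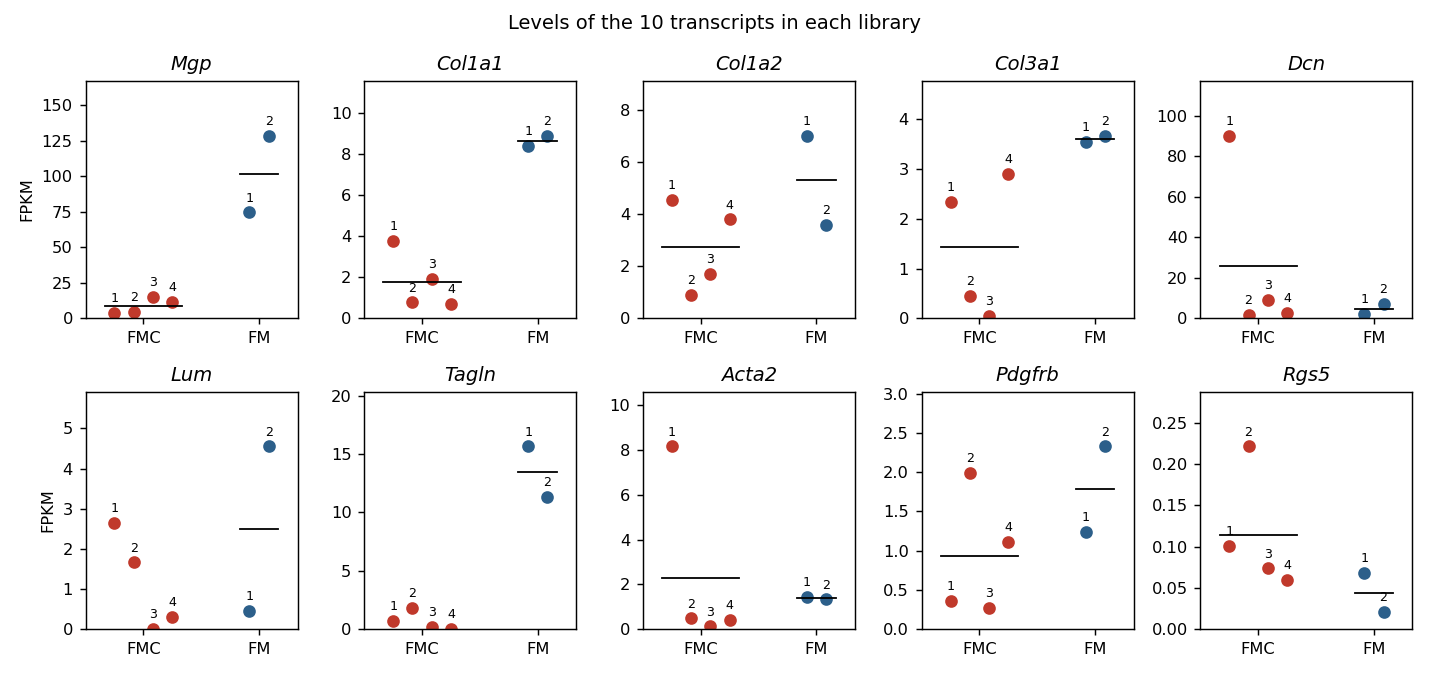
Level of each of the 10 transcripts (FPKM, linear axis from 0, scaled per gene) in the 4 FMC libraries (red) and the 2 FM libraries (blue); the small digit is the replicate number and the line the group mean, left out where a library is listed at 0. Mgp, Tagln, Col1a1 and Col3a1 have every FMC library below both FM libraries, while FMC 1 stands highest for Dcn and Acta2.

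Mgp (ENSMUSG00000030218, chromosome 6 from 136820957 to 136824326 in mm9) had the highest level of the 10 in both FM libraries. It was at 3.77, 4.39, 15.1 and 11.6 FPKM in FMC 1 to FMC 4 and at 74.5 and 128 FPKM in FM 1 and FM 2. Every FMC library was therefore below the lower FM library, with a wide gap between 15.1 and 74.5 FPKM. Its means were 8.73 ± 5.57 FPKM in FMC (SD, n = 4) and 101 ± 38 FPKM in FM (SD, n = 2), a log2 difference of -3.54 ± 0.66 (SE), or 11.6-fold lower on that scale. By the estimated depth and a transcript of 715 bases these values rest on about 61, 52, 358 and 299 fragments in FMC 1 to FMC 4 and on about 1012 and 5069 in FM 1 and FM 2. Of all genes tested, 71 (0.390%) had a lower difference than Mgp. This rank is a description and no test, since Mgp was picked on the same contrast. Mgp exceeded 97.5% and 98.1% of listed genes in FM 1 and FM 2, and between 74.4% and 87.6% of them in the FMC libraries.

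Tagln, which encodes the actin-binding protein transgelin of smooth muscle, was the mural gene with the largest difference. It stood at 0.675, 1.79, 0.199 and 0 FPKM in FMC 1 to FMC 4, against 15.6 and 11.3 FPKM in FM 1 and FM 2. The groups did not overlap, and FMC 4 is listed at 0, so no mean FPKM is given. The log2 difference, which includes that 0, was -3.22 ± 0.76 (SE), with 108 (0.593%) of the genes tested lower. It was -3.01 without FMC 4 and -4.87 with a pseudocount of 0.1. As for Mgp, the rank is on the contrast that picked the gene. About 30, 57, 13 and 0 fragments stood behind the FMC values and about 575 and 1211 behind the FM values. The end of the Tagln locus overlaps that of Pcsk7, a proprotein convertase gene with a mean of 6.20 FPKM over the 6 libraries, and no source used here says whether strand was counted, so reads of the overlap cannot be assigned.

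Acta2, the smooth muscle actin that shares its filament with transgelin, did not follow Tagln. It was at 8.16, 0.473, 0.113 and 0.389 FPKM in FMC 1 to FMC 4 and at 1.43 and 1.32 FPKM in FM 1 and FM 2. The groups overlapped: 3 FMC libraries lay below both FM libraries and FMC 1 above both. The log2 difference was -0.15 ± 0.91 (SE), close to the median of all genes, and it became -0.85 without FMC 1. Coding reads of Acta2 may be shared with other actin genes, which makes its low values uncertain. The ratio of Tagln to Acta2 was 0.0827, 3.79, 1.76 and 0 in FMC 1 to FMC 4 and 10.9 and 8.56 in FM 1 and FM 2, so it was lower in every FMC library. That ratio rests on the same values that chose the genes.

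The pericyte genes among the 10, Pdgfrb and Rgs5, were low throughout. Other mural genes were higher in some libraries. Vtn, for example, was at 33.2 FPKM in FMC 1, 0 to 3.99 FPKM in the other FMC libraries, and 2.03 and 1.72 FPKM in FM. Pdgfrb, the receptor for platelet-derived growth factor, was at 0.361, 1.99, 0.269 and 1.12 FPKM in FMC 1 to FMC 4, against 1.24 and 2.33 FPKM in FM 1 and FM 2. FMC 2 lay between the FM libraries and the other 3 FMC libraries below them. Rgs5, a regulator of G protein signalling used as a marker of brain pericytes, was at 0.101, 0.222, 0.0736 and 0.0598 FPKM in FMC and at 0.0675 and 0.0207 FPKM in FM. These values rest on about 12 to 20 fragments in FMC and 7 and 6 in FM, so its order among libraries is at the edge of what the depth can show. Of the 4 mural genes only Tagln separated the groups, and the pericyte marker Rgs5 was under 1 FPKM in all 6 libraries.

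All 3 collagen genes had a lower mean in FMC, but only Col1a1 and Col3a1 had groups that did not overlap. Col1a1, which encodes the alpha 1 chain of type I collagen, was at 3.76, 0.771, 1.91 and 0.680 FPKM in FMC 1 to FMC 4 and at 8.39 and 8.90 FPKM in FM 1 and FM 2. The groups did not overlap, with means of 1.78 ± 1.43 FPKM in FMC (SD, n = 4) and 8.65 ± 0.36 FPKM in FM (SD, n = 2) and a log2 difference of -1.93 ± 0.78 (SE). Col1a2, the partner chain of the same fibril, was at 4.55, 0.893, 1.71 and 3.80 FPKM in FMC and at 7.02 and 3.59 FPKM in FM. Here FMC 1 and FMC 4 lay above FM 2, and the log2 difference was -0.83 ± 0.81 (SE). Col3a1, the type III chain of elastic tissues such as vessel walls, was at 2.34, 0.453, 0.0482 and 2.91 FPKM in FMC and at 3.55 and 3.67 FPKM in FM. Its groups did not overlap, but FMC 4 came near FM 1, and FMC 3 was far below the rest. The log2 difference of Col3a1 was -1.13 ± 0.79 (SE), and -2.08 with a pseudocount of 0.1.

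The chains of type I collagen, which are built into the same molecule, did not keep a fixed ratio. Col1a1 over Col1a2 was 0.826, 0.863, 1.11 and 0.179 in FMC 1 to FMC 4 and 1.19 and 2.48 in FM 1 and FM 2. All FMC ratios were below both FM ratios, with FMC 4 the lowest, where Col1a2 stood at 3.80 FPKM and Col1a1 at 0.680 FPKM. As for Tagln over Acta2, this ratio rests on the same values that chose the genes, so its order is a description. In FMC 2 it rests on about 101 fragments of Col1a1 and 105 of Col1a2. The 3 collagen genes together summed to 10.6, 2.12, 3.67 and 7.39 FPKM in FMC and to 18.97 and 16.16 FPKM in FM.

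The proteoglycan genes overlapped between the groups, Dcn with a higher mean in FMC and Lum with a lower one. Dcn, which encodes decorin, was at 90.2, 1.68, 9.17 and 2.53 FPKM in FMC 1 to FMC 4 and at 1.97 and 7.21 FPKM in FM 1 and FM 2. FMC 1 was far above every other library and FMC 3 also lay above both FM libraries, so the log2 difference was 0.97 ± 1.35 (SE). Without FMC 1 it was -0.11. Lum, which encodes lumican and lies 47.4 kb from Dcn on chromosome 10, was at 2.65, 1.66, 0 and 0.298 FPKM in FMC and at 0.451 and 4.55 FPKM in FM. The FM libraries were the highest and the fourth highest of the 6, with a log2 difference of -0.59 ± 0.82 (SE) that became 0.38 without FM 2. Dcn over Lum was 34.1, 1.009 and 8.49 in FMC 1, FMC 2 and FMC 4, and 4.36 and 1.58 in FM 1 and FM 2; FMC 3 has no ratio because Lum is listed at 0.

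**Figure D2:**
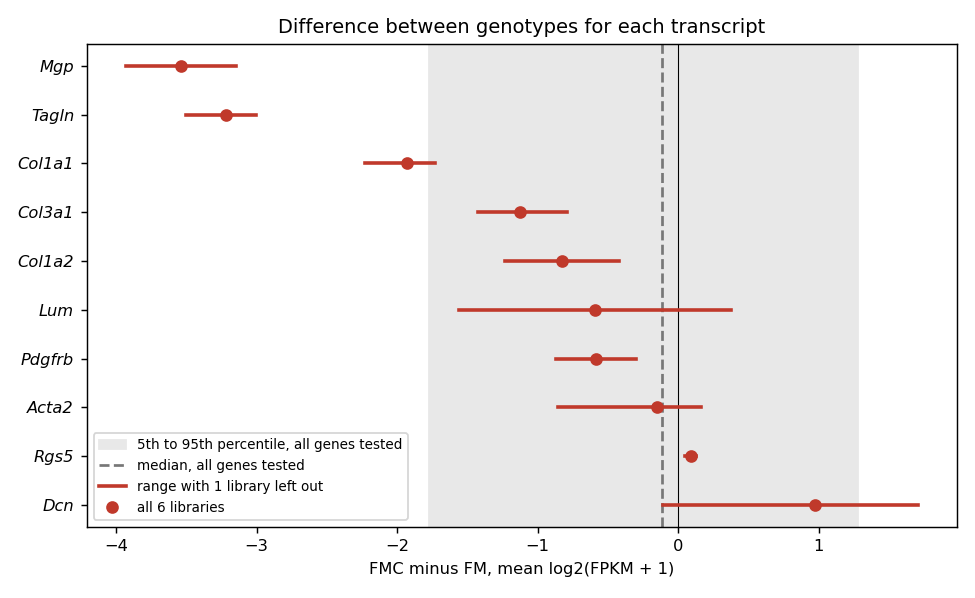
Difference of each transcript between genotypes (FMC minus FM, mean log2(FPKM + 1)); points use all 6 libraries and bars span the values with 1 library left out in turn. Grey covers the 5th to 95th percentile of all genes tested (-1.77 to 1.28) and the dashed line their median of -0.12. The points of Mgp, Tagln and Col1a1 lie below the grey band, while the bars of Acta2, Dcn and Lum cross 0. The genes were picked for low levels in FMC, so their place against the band is a description.

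Summed over the 10 genes, the FPKM came to 117, 14.3, 28.6 and 23.4 in FMC 1 to FMC 4 and to 114 and 171 in FM 1 and FM 2. This is between 0.00320% and 0.0174% of all FPKM in the FMC libraries and 0.0274% and 0.0282% in the FM libraries. FMC 1 reached the level of FM 1, but by other genes: Dcn made up 77.4% of its sum and Mgp 3.24%, whereas Mgp made up 65.21% and 74.95% of the sum in FM 1 and FM 2. In FMC 2, FMC 3 and FMC 4 Mgp made up 30.6%, 52.9% and 49.7%. The 4 mural genes summed to 9.30, 4.48, 0.655 and 1.56 FPKM in FMC and to 18.4 and 15.0 FPKM in FM, and the 6 matrix genes to 107, 9.84, 28.0 and 21.9 FPKM in FMC and 95.9 and 156 FPKM in FM.

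**Figure D3:**
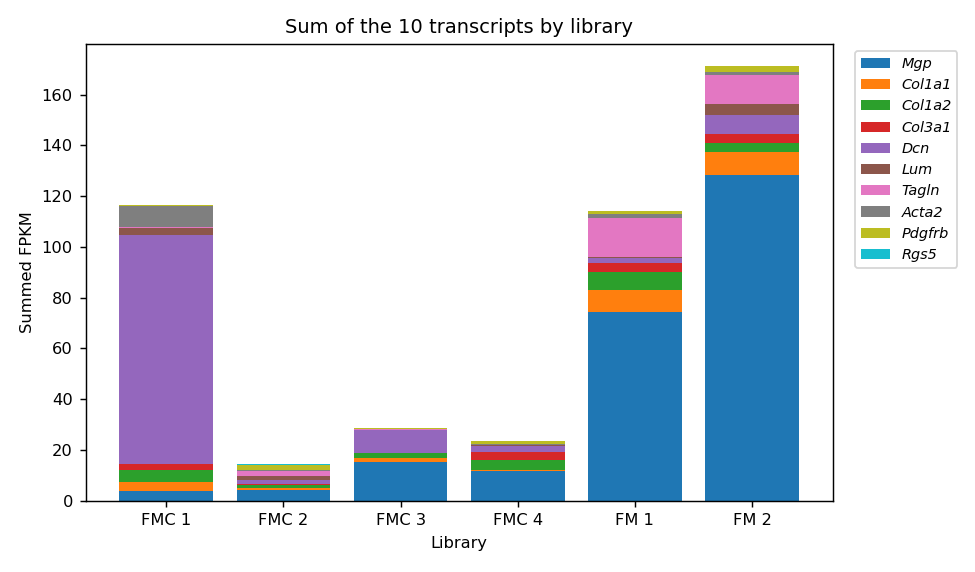
Summed FPKM of the 10 transcripts in each library, stacked by gene (FMC left, FM right, linear axis from 0). Mgp fills most of the bars of FM 1 and FM 2, and Dcn most of the bar of FMC 1.

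The order of levels also differed between the groups. In FM, Mgp was above Tagln and Tagln above Col1a1 in both libraries; next in order of their means came Col1a2, Dcn, Col3a1, Lum, Pdgfrb and Acta2, each overlapping its neighbours, and Rgs5 was lowest. In FMC the mean was highest for Dcn (25.9 FPKM) and then Mgp (8.73 FPKM), an order that rests on FMC 1, since Mgp was above Dcn in the other 3 libraries. FM 2 was the highest library for 5 of the 10 genes, FM 1 and FMC 1 for 2 each and FMC 2 for 1, while FMC 3 was the lowest for 4.

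Profiles over the 6 libraries, each centred on its gene's own mean, were compared by their root mean square difference on the log2(FPKM + 1) scale. Of all pairs among the 10 genes, Col1a2 and Col3a1 were closest (0.45), and Dcn and Mgp farthest apart (2.89). The profile nearest to that of Mgp among the other 9 was that of Tagln (1.09), followed by Col1a1 (1.20), while Tagln itself was nearer to Col1a1 (0.93). The measure is in absolute log2 units, so genes at low levels, such as Pdgfrb and Rgs5 (0.52), can lie close with little signal. Among 8108 named genes with a mean of at least 5 FPKM, the 8 most like Mgp were Vmn2r82 (0.47), Olfr491 (0.52), Aldh1a1 (0.56), Psd3 (0.56), Olfr918 (0.60), Olfr352 (0.61), Ndufaf2 (0.61) and Vmn2r23 (0.62). All 8 were nearer to Mgp than any of the other 9 members was. That outcome was nearly fixed, since the 8 were the nearest of 8108 genes. Of the other members only Dcn had a mean of at least 5 FPKM and entered this ranking. Vmn2r82, a vomeronasal receptor gene, was at 0.800, 1.82, 2.11 and 3.68 FPKM in FMC 1 to FMC 4 and at 17.4 and 36.4 FPKM in FM 1 and FM 2. The 8 nearest to the mean profile of the 10 members were H13 (0.19), Tmx1 (0.22), Tcf12 (0.23), Ube2d2 (0.23), Cirbp (0.23), Trim47 (0.23), Alg11 (0.23) and Tm7sf2 (0.24). H13, a signal peptide peptidase gene, was at 65.8, 32.4, 38.8 and 38.5 FPKM in FMC and 66.2 and 78.5 FPKM in FM, a profile in which FMC 1 lies close to FM 1.

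**Figure D4:**
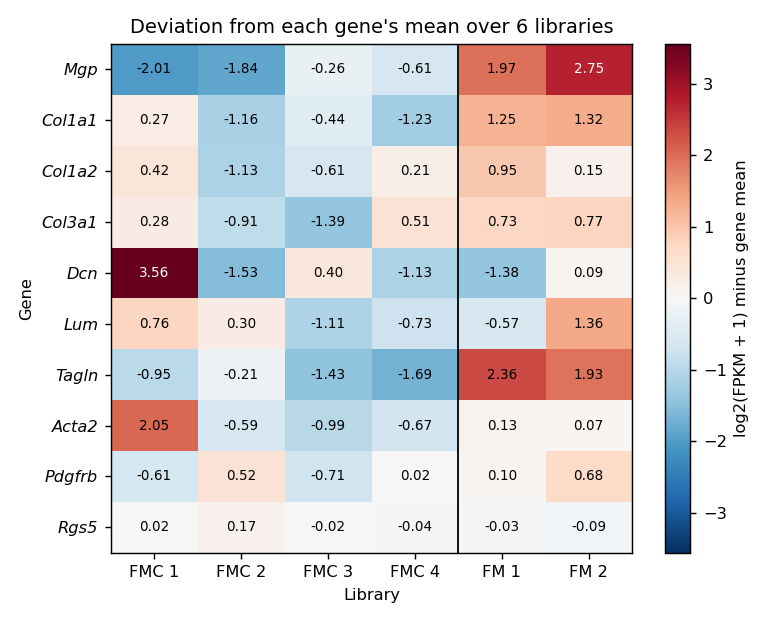
Deviation of each transcript from its mean over the 6 libraries (log2(FPKM + 1), colour scale; value in each cell), with FMC libraries left and FM libraries right of the line. Mgp and Tagln are raised in both FM libraries, Dcn (3.56) and Acta2 (2.05) in FMC 1, and Rgs5 stays near 0.

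The titles of FMC 2 and FM 1, both male, carry dates 1 day apart, and so do those of FMC 3 (male) and FM 2 (female); what these dates stand for is not stated. Within these pairs the log2 difference of Mgp was -3.81 and -3.00, that of Tagln -2.58 and -3.36, that of Col1a1 -2.41 and -1.77, and that of Col3a1 -1.65 and -2.16. For these 4 genes a negative sign in both pairs was fixed, since every FMC library lay below both FM libraries. Acta2 (-0.72 and -1.06) and Col1a2 (-2.08 and -0.76) were also lower in both pairs, and Rgs5 (0.19 and 0.07) was higher in both. Their signs did not depend on the pairing. FMC 2 and FMC 3 lay below both FM libraries for Acta2 and Col1a2, and above both for Rgs5. For Pdgfrb (0.42 and -1.39), Lum (0.87 and -2.47) and Dcn (-0.15 and 0.31) the pairs went opposite ways.

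Sex was not used to pick the genes and is balanced within each genotype, so the male against female difference was tested with genotype as a covariate. Across the 18208 genes limma called 0 at an adjusted p under 0.05 (0%), with 1354 (7.44%) at an unadjusted p under 0.05. None of the 9 genes tested was among either. Col3a1 had the smallest p of the 9, at 1.35 ± 1.92 FPKM in males and 2.97 ± 0.67 FPKM in females (SD, n = 3 each; log2 difference -1.05 ± 0.69 SE, limma adjusted p = 0.792). Dcn was at 4.27 ± 4.24 FPKM in males and 33.3 ± 49.3 FPKM in females, of which FMC 1 was female (log2 difference -1.68 ± 1.21 SE, limma adjusted p = 0.817). Mgp, at 31.4 ± 37.8 FPKM in males and 47.9 ± 69.8 FPKM in females, differed by -0.08 ± 0.66 on the log2 scale (SE; adjusted p = 0.995 in limma). The genotype by sex interaction was called for 0 genes (0%; 686, or 3.77%, at an unadjusted p under 0.05), and the members had an adjusted p of 0.999 each. A missed threshold does not show equal levels.

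Other genes of the same cells were read from lists written with earlier results of these data known. For the genotype comparison limma called 5 of 18208 genes lower in FMC (0.0275%) and 0 higher (0%); 208 genes higher and 765 lower had an unadjusted p under 0.05. None of the 9 members in the fit was among the 5, which is no test of them, since they were picked on this contrast. No gene of any list was among the 5 either. The lists are therefore described by their counts and medians. Of 24 other mural genes 17 were measured, of which 1 lay below both FM libraries in every FMC library, at a background of 8.22%, and 1 above; their median log2 difference was -0.18. Desmin (Des) was at 2.573, 0.1617, 2.077 and 1.097 FPKM in FMC and 2.487 and 1.379 FPKM in FM. The contractile genes Tpm2, Tpm1 and Cald1 also overlapped between groups; Cald1, which encodes caldesmon, was at 11.5 FPKM in FMC 1, between 0.231 and 0.966 FPKM in the other FMC libraries, and at 4.16 and 0.781 FPKM in FM. The gene below was Rgs4, and the one above was Mylk, the myosin light chain kinase gene; both were named after their values were seen. The share of these mural genes below FM did not exceed the background.

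Of 26 other fibroblast genes 15 were measured, 2 below (Dpt and Lamb2, named after their values were seen) and 0 above, with a median of -0.46 that became -1.16 with a pseudocount of 0.1. Dpt, which encodes dermatopontin, was between 0.0159 and 0.499 FPKM in FMC and at 2.25 and 14.8 FPKM in FM. The type VI collagen genes had opposite signs and overlapped: Col6a1 was at 0.163, 3.15, 0.633 and 0.310 FPKM in FMC and 4.55 and 2.85 FPKM in FM, and Col6a3 at 3.74, 2.72, 1.37 and 9.57 FPKM in FMC and 2.34 and 3.10 FPKM in FM. Col14a1 overlapped between groups, and Fbln1, the fibulin 1 gene, was at 5.83 FPKM in FMC 1, under 1 FPKM in 4 other libraries, and listed at 0 in FMC 4. Of 13 meningeal genes 8 were measured, 1 below and 1 above, with a median of -0.16. Slc6a13, a transporter of the meninges, was at or under 0.271 FPKM in FMC, listed at 0 in FMC 3, and at 0.519 and 5.87 FPKM in FM, too low to pass the filter, whereas Ptgds, which encodes prostaglandin D synthase, was at 6.06, 14.5, 30.7 and 57.6 FPKM in FMC and 7.53 and 42.1 FPKM in FM.

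Among the small leucine-rich proteoglycans, relatives of Dcn and Lum, 6 of 10 were measured, 1 below and 0 above, with a median of -0.63. Bgn, which encodes biglycan, was at 32.8, 11.1, 6.60 and 1.75 FPKM in FMC 1 to FMC 4 and 25.6 and 13.2 FPKM in FM, again with FMC 1 the highest. Prelp was at 15.3, 2.88, 2.89 and 19.01 FPKM in FMC and 7.14 and 2.20 FPKM in FM, while Fmod and Omd overlapped too. Of the 22 enzymes and chaperones of collagen processing 14 were measured, 2 below and 1 above, with a median of -0.03. The prolyl hydroxylase gene P4ha1 was at 62.9, 29.9, 31.2 and 32.4 FPKM in FMC and 22.1 and 41.2 FPKM in FM, and P4ha2, P4hb and Plod1 overlapped as well. These enzymes serve many cell types.

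Of 15 genes linked to Mgp, 10 were measured, 3 below and 0 above, with a median of -0.47. The 3 were Vkorc1l1, a paralogue of the vitamin K epoxide reductase, and the genes of the carboxylated proteins Gas6 and Pros1; the last pair was named after its values were seen. Vkorc1l1 was at 3.54, 16.6, 13.2 and 18.8 FPKM in FMC and 36.3 and 26.7 FPKM in FM (log2 difference -1.39, limma adjusted p = 0.993). Pros1, the gene of protein S, was at 50.5, 50.0, 91.7 and 96.3 FPKM in FMC and 119 and 134 FPKM in FM. Ggcx, the carboxylase itself, and Vkorc1 overlapped, with Ggcx at 5.15, 2.90, 4.15 and 8.98 FPKM in FMC and 5.05 and 6.24 FPKM in FM. Bmpr2, a receptor of the proteins that Mgp binds, was at 53.3, 66.2, 66.8 and 37.3 FPKM in FMC and 63.6 and 28.2 FPKM in FM.

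Of 10 genes of platelet-derived growth factor signalling 8 were measured, 1 below and 0 above, with a median of -0.26. The ligand genes Pdgfa and Pdgfb, which act on the receptor encoded by Pdgfrb or its relative, overlapped between groups, with Pdgfb at 2.62, 12.1, 8.47 and 8.34 FPKM in FMC and 4.78 and 11.8 FPKM in FM. The gene below was Pdgfrl, a receptor-like gene, at 0.188, 0, 0.0870 and 0.413 FPKM in FMC and 1.99 and 4.88 FPKM in FM. Of 18 transcription factors of smooth muscle and mesenchyme 12 were measured, 1 below and 0 above, with a median of -0.07. Srf, the factor that binds the CArG box, was at 0.699, 5.78, 1.96 and 2.00 FPKM in FMC and 3.66 and 0.837 FPKM in FM, and its coactivator genes Mkl1 and Mkl2 overlapped as well.

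**Figure D5:**
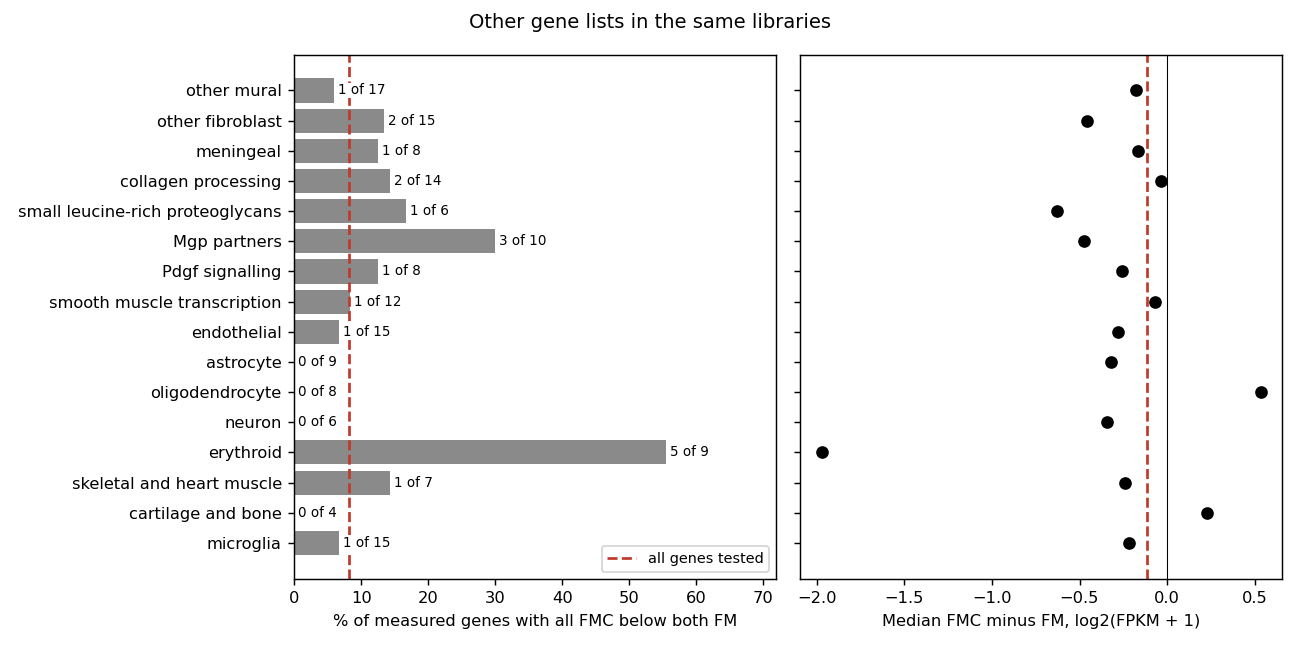
Left, percent of the measured genes of each list with all 4 FMC libraries below both FM libraries (counts beside the bars); right, median difference of each list (FMC minus FM, log2(FPKM + 1)). Dashed lines mark all genes tested, 8.22% and -0.12. The erythroid list has the longest bar, at 5 of 9, and the other mural list, at 1 of 17, lies below the dashed line.

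Markers of red blood cells separated the groups in the same direction as Mgp and Tagln. Of 10 erythroid genes 9 were measured, 5 below both FM libraries (Hbb-b1, Hbb-b2, Hba-a1, Hba-a2 and Alas2) and 0 above, with a median of -1.97. The list summed to 35.4, 28.3, 32.0 and 28.4 FPKM in FMC 1 to FMC 4 and to 162 and 131 FPKM in FM 1 and FM 2, so it separated the groups as Mgp did. None of its genes was at 0 in all libraries, and near-identical globin copies may share reads. The part of red cell RNA in the differences of Mgp and Tagln was not tested. Endothelial genes (15 of 20 measured, 1 below, 0 above, median -0.28) summed to between 114 and 500 FPKM in FMC and to 191 and 251 FPKM in FM. Their sum did not separate the groups. Its largest part was Ly6a, at 333 FPKM in FMC 4, 50.4 to 97.6 FPKM in the other FMC libraries, and 76.6 and 83.4 FPKM in FM. Pecam1, Cdh5, Kdr and Flt1 overlapped between groups, with log2 differences of -0.01, -0.33, -0.02 and 1.05. Cldn5, Tek, Emcn and Slco1c1, too low to pass the filter, were below both FM libraries in every FMC library. Itm2a, also too low, overlapped. The genes too low for the filter were named after their values were seen. The background of 8.22% covers only genes that passed the filter, so it gives no share to set beside them. The sum of astrocyte genes (9 of 12 measured, 0 below, 0 above, median -0.32) overlapped too, at 123 to 128 FPKM in FMC and 127 and 146 FPKM in FM. Most of it was Slc1a3, at 104 to 120 FPKM in FMC and 108 and 130 FPKM in FM. Oligodendrocyte genes (8 of 15 measured, 0 below, 0 above, median 0.53) summed to 26.5 to 51.6 FPKM in FMC and 20.5 and 35.7 FPKM in FM. Neuron genes (6 of 12, 0 and 0, median -0.34), muscle genes (7 of 14, 1 below, 0 above, median -0.24), cartilage and bone genes (4 of 10, 0 and 0, median 0.23) and microglial genes (15 of 15, 1 below, 0 above, median -0.22) complete the lists, with Bglap alone listed at 0 in all libraries. Over all 16 lists, 20 of 161 measured genes (12.4%) lay below both FM libraries and 3 (1.86%) above. Of the 20, 6 (Rgs4, Dpt, Ogn, Pdgfrl, Tcf21 and Actc1) were under 1 FPKM in every FMC library and passed the filter through the FM libraries alone, so they could only be counted as below; the same held for 308 of the 1496 such genes among all genes tested (20.6%). These counts are therefore a description and support no direction.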

How the data were processed

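The deposited table holds FPKM values that the authors made for each gene in each of the 6 libraries. Per the submitters' processing notes, CASAVA 1.8.2, TopHat2 2.0.4, Bowtie2 2.0.0, Cufflinks 2.0.2 and the build mm9 were used, without roles or settings. Per the labels' protocols, RNA was amplified with the Ovation RNA-Seq method. Locus starts count from 0, since 21681 spans then equal those of GENCODE M21 and 420 otherwise, so 1 was added. Of 37447 genes 426 lacked a value and were left out. A 0 may be a failed estimate, as 32 mitochondrial genes of 37 stand at 0 throughout.

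Values were tested as log2(FPKM + 1), which understates changes of low genes. The 18208 genes that reached 1 FPKM in 2 or more libraries entered. The model was fitted with limma (version 3.58.1, R 4.3.3), trended by intensity, with Benjamini-Hochberg adjustment at 0.05 and two-sided tests, and was tested on simulated data. Depth was read from the first mode of FPKM times length (less 200 bases) over single-transcript genes of at least 1000 bases. Fragment numbers derived from it use the longest GENCODE transcript, are approximate, and count amplified fragments, not molecules. P-values set each difference against the residual spread between these libraries, which limma moderates with that of other genes.

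The members and the 16 other lists were chosen with earlier results of these data known. From each list the first 4 genes with a mean of at least 1 FPKM could be named, and others only as stated. Genes most like Mgp or the members' mean were the 8 nearest in centred profile. Alternatives changed the pseudocount (0.1), the filter (none, or a mean of 5 FPKM or more), the scaling, the trend or the model (sex added, blocks for replicate number or for title date), or omitted each library in turn.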

Additional observations from a re-analysis of the deposited data

Results flagged for a closer look

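Acta2 in FMC 1, at 8.16 FPKM against 0.473, 0.113 and 0.389 FPKM in FMC 2, FMC 3 and FMC 4, stood apart from the other FMC libraries: its gap to the next library was 0.867 of the whole range of the 4 on the log2(FPKM + 1) scale, above Dixon's critical value for 4 samples at the 95% level. Of the 10 genes and 3 sums examined in this way it was the only one, and chance flags about 1 in 20 groups. Neither of the FM libraries, at 1.43 and 1.32 FPKM, reached the FMC 1 value.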

How the results depend on the processing

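The signs of Mgp, Tagln, Col1a1, Col3a1, Col1a2, Pdgfrb and Rgs5 held under every alternative run. When 1 library was left out, the value of Mgp was between -3.93 and -3.15 and that of Tagln between -3.50 and -3.00. For Mgp, Tagln, Col1a1 and Col3a1 the sign without 1 library was fixed, since every FMC library lay below both FM libraries. Acta2 changed sign with quantile normalization (0.063), with the replicate block (0.63) and without FMC 2, FMC 3 or FMC 4 (range over omitted libraries -0.85 to 0.16), Dcn without FMC 1 (range -0.11 to 1.70), and Lum without FM 2 (range -1.56 to 0.38) and with the replicate block (0.13); the cause was not tested. The median over the 10 genes was -1.21 with a pseudocount of 0.1, -1.16 with the date block and -0.51 with quantile normalization. The pseudocount of 0.1 also moved Tagln to -4.87, Col3a1 to -2.08 and Rgs5 to 0.53, and the median of the other fibroblast list to -1.16. The median over the 10 genes ran from -1.01 to -0.56 as libraries were left out. The count of members lower in every FMC library then ran from 4 to 6, and it could not fall, since fewer values have to be passed. The median of all genes moved from -0.12 to -0.01 with median ratio scaling and to 0.02 with quantile normalization. Against 5 genes called for genotype, all lower in FMC, 1 was called with a pseudocount of 0.1, and it was higher, so none of the 5 was among the calls. The count was 0 with no filter, 0 with a mean of at least 5 FPKM, 10 (all lower) without the intensity trend, 0 with sex as a covariate, 0 with the replicate block, 3 (2 higher, 1 lower) with the date block, and 0 to 8 without 1 library. It was 0 without FMC 2, FMC 3, FM 1 or FM 2 and 8 (4 higher, 4 lower) without FMC 4. The numbers pair no samples in the labels. Deviations of same-numbered libraries from their group means correlated at 0.03 and -0.06. With only 2 FM libraries, the FM deviations are mirror images, so these correlations cannot decide whether the numbers pair samples. Sex calls ran from 0 to 4 without 1 library, with 4 without FMC 1, 2 without FMC 2, FM 1 or FM 2, and 1 without FMC 4, and interaction calls stayed at 0; without an FM library the interaction could not be fitted. The 20 list genes below both FM libraries became 25 to 47 as libraries were left out, highest without FM 1 (47) and FM 2 (41), where fewer values have to be passed. With 2 FM libraries the spread of that group is hardly known, and the depth limits Rgs5, with 6 to 20 fragments a library.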

Other observations

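FMC 1 held high values of several matrix and mural genes beside Dcn and Acta2, noticed after the values were seen. It was the highest library for 9 of the 32 measured genes of the other mural and other fibroblast lists (28.1%), against 15.4% of all genes tested; FM 1 was the highest for 7 of the 32 (21.9%, against 14.9%). Over all 161 measured list genes FMC 1 was the highest for 28 (17.4%), near its share of all genes. Vtn, which encodes vitronectin, was at 33.2 FPKM in FMC 1 and at 3.99, 0 and 1.93 FPKM in FMC 2, FMC 3 and FMC 4, and at 2.03 and 1.72 FPKM in FM. Serping1, the C1 inhibitor gene, was at 37.1 FPKM in FMC 1, between 4.58 and 8.42 FPKM in the other FMC libraries, and at 11.2 and 3.63 FPKM in FM. Serpinh1, the collagen chaperone gene, was at 6.71, 3.07, 1.28 and 0.109 FPKM in FMC 1 to FMC 4, at 0.572 FPKM in FM 1 and listed at 0 in FM 2. Col1a1 was also higher in FMC 1 than in the other FMC libraries, though below both FM libraries, and FMC 1 had the lowest Mgp of all libraries.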
